A study of Mus musculus with 8 samples.

Results

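The 9 genes described here, Ly6c2, Cd14, Itgam, Itgal, Itgb2, Plac8, Ms4a6c, Lyz2 and Chil3, are genes of blood-derived inflammatory monocytes. They were taken by gene name from a count table of 55450 mouse genes, and all 9 were found. RNA had been sequenced from c-Kit bead-enriched cells of subcutaneous B16F10 tumours, a pigmented mouse melanoma line, grown for 17 days in wild-type C57BL6 mice that were 6 weeks old when 150000 tumour cells were injected. The 4 PERK KO libraries, numbered 1 to 4, came from tumours of B16F10 cells that lack PERK, an endoplasmic reticulum stress kinase. The 4 scramble libraries, numbered 2 to 5, came from tumours of B16F10 cells carrying a scramble control. The hosts of both groups were wild type, so the PERK lesion lay in the injected tumour cells only. How many clones stand behind each line and whether each tumour had a mouse of its own were not given, so p-values measure the spread between tumours of 1 line per group.

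Inflammatory monocytes leave the bone marrow, circulate in blood and enter inflamed tissue and tumours, where they can become macrophages or dendritic cells. In the mouse they are recognised by a high level of the surface protein Ly6C together with the integrin chain CD11b, which Itgam encodes. CD11b and CD11a, the product of Itgal, each pair with CD18, the product of Itgb2, to form the adhesion receptors Mac-1 and LFA-1 that hold leukocytes to the vessel wall. Several of the genes are not particular to monocytes. Macrophages and neutrophils also express Lyz2, Cd14, Itgam and Itgb2, lymphocytes express Itgal, and some epithelia express Plac8.

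Promoter sequences are shown for Ly6c2, Itgam and Plac8, because these held the core letters GAGGAA bound by PU.1, a transcription factor that myeloid cells need. Each run is the 250 bases before the transcription start in the RefSeq table for GRCm38.p6, 5′ to 3′ on the strand of the gene, with GAGGAA or its reverse complement in capitals. The windows were chr15:75111972-75112221 (minus strand), chr7:128062390-128062639 (plus strand) and chr5:100572206-100572455 (minus strand).
Ly6c2: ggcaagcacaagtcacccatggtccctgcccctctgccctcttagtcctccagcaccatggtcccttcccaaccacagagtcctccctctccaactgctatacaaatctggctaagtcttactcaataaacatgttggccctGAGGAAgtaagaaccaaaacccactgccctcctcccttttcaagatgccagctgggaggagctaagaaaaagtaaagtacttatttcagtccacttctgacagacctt
Itgam: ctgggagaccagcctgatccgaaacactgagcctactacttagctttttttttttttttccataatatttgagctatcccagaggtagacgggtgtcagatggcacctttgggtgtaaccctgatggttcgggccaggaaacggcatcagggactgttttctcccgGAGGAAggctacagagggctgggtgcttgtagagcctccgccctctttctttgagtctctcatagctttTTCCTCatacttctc
Plac8: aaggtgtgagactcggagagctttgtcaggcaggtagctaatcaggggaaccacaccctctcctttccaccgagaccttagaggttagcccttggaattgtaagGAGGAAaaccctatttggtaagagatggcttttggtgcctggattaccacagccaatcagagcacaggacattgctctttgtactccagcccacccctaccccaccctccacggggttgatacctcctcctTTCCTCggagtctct
Of the 9 genes, 6 had an entry in that table, and Cd14, Itgal and Itgb2 were not matched. GAGGAA was found on either strand in 3 of these 6 windows, against 23.3% of all 32851 promoter windows of the same length. The RUNX core TGTGGT was found in 3 of 6 windows (Ly6c2, Plac8 and Lyz2), against 14.0% of all windows. The C/EBP letters TTGCNNAA and the IRF pair motif (GAAA, any NN, then GAAA) were in none of the 6 windows and in 9.56% and 2.98% of all windows. Of the 5 GAGGAA and 4 TGTGGT matches, 0 overlapped a match of another motif, and a match describes the sequence only.

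Depth ran from 29006949 to 47530393 counts in PERK KO libraries and from 44950033 to 56697163 counts in scramble libraries. A total of 3 counts, taken as the floor, stood for 0.0697 to 0.101 CPM in PERK KO and 0.0515 to 0.0650 CPM in scramble libraries; such floors cover counting error only. CPM is the depth-scaled count of a gene, here with TMM factors that make libraries comparable. Eif2ak3, which encodes PERK, lay at 7.73 to 22.7 CPM in PERK KO and 48.3 to 59.2 CPM in scramble libraries, and it fell (log2 change -1.97, edgeR adjusted p = 0.00371). Kit lay at 139 to 211 CPM in PERK KO and 170 to 223 CPM in scramble libraries (edgeR adjusted p = 0.559). Markers of the melanocyte lineage were abundant in the enriched cells, with a summed 20560 to 25010 CPM over 10 genes in PERK KO and 29010 to 29660 CPM in scramble libraries. The labels call the cells c-Kit+ precursors, but most of 10 listed genes of granulocyte and monocyte progenitors had few or no counts. Mpo, Prtn3 and Ms4a3 had no count in any of the 8 libraries, and Elane, Ctsg, Cebpe and Prss57 had counts in 1 to 3 libraries each and were not tested. Cd34 averaged 12.3 ± 4.72 CPM in PERK KO and 8.06 ± 4.46 CPM in scramble libraries, and Calr, which most cells express, 863 ± 27.9 and 868 ± 22.1 CPM (SD, n = 4 each). These and Gfi1 did not pass. PERK KO library 4 and scramble library 4 stood apart in leukocyte content: 11 pan-leukocyte genes summed to 885 CPM in PERK KO library 4 against 204 to 296 CPM in the other PERK KO libraries, and to 20.9 CPM in scramble library 4 against 55.1 to 60.1 CPM in the other scramble libraries.

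The question put to these libraries was whether monocyte transcripts among the enriched cells depend on PERK in the tumour. All 9 genes passed the filter on low counts, and Plac8 and Chil3 reached its minimum in 4 PERK KO but only 3 scramble libraries. With the quasi-likelihood test of edgeR, 8 of the 9 rose in PERK KO tumours at an adjusted p under 0.05, none fell, and Chil3 did not pass. Over all 16662 genes tested, 7.66% were called higher and 6.13% lower. In the same 8 genes the lowest PERK KO library lay above the highest scramble library, which was so for 10.2% of all genes tested. The median log2 change of the 9 genes was 2.41, beside -0.02 over all genes tested. In bulk RNA, more cells of a type and more RNA per cell cannot be told apart. Without PERK KO library 4 and scramble library 4, a set chosen after their values were seen, 5 of the 9 genes were called higher and the median log2 change was 1.72. Of all 16973 genes tested in that set, 779 were called higher and 500 lower, with a median log2 change of -0.009.

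**Figure D1:**
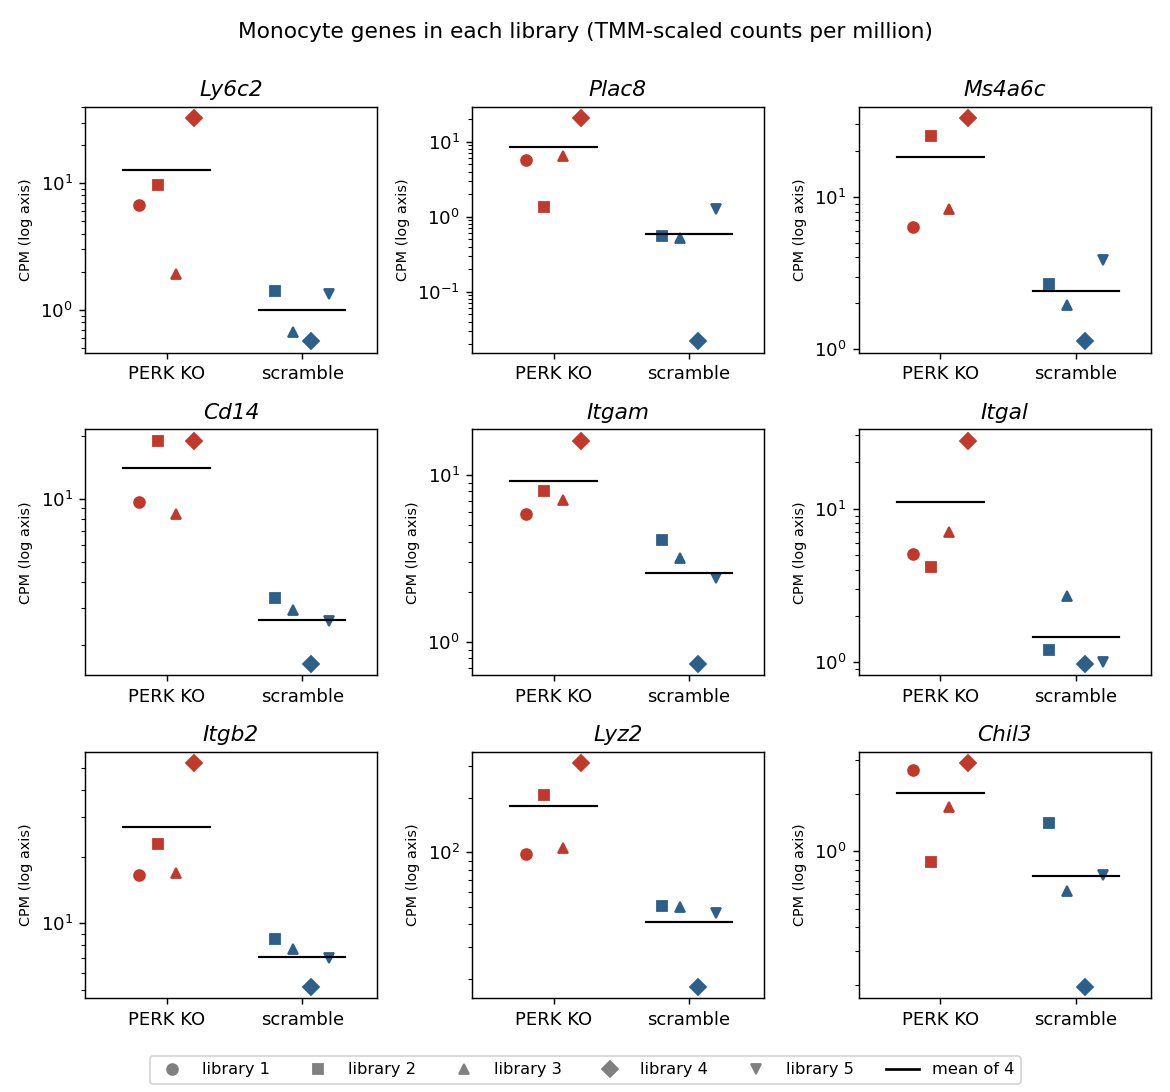
Level of each monocyte gene in CPM (log axis, one panel per gene) in the 4 PERK KO libraries (left, red) and 4 scramble libraries (right, blue), with marker shapes for library numbers and a line at the mean of 4. In every panel but that of Chil3 all PERK KO points lie above all scramble points, and scramble library 4 is the lowest point of every panel.

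Ly6c2 encodes one of the proteins read as Ly6C, the surface marker that defines inflammatory monocytes. It had 6.70, 9.71, 1.93 and 32.7 CPM in PERK KO libraries 1 to 4, against 1.41, 0.670, 0.563 and 1.34 CPM in scramble libraries 2 to 5. PERK KO library 3 stood only just above the highest scramble library, and PERK KO library 4 was 17.0 times as high as PERK KO library 3. Ly6c2 rose by 3.67 in log2 units (SE 0.79, n = 4 and 4, edgeR adjusted p = 0.0157). It was 2.61 without PERK KO library 4 (adjusted p = 0.0140), and the call was lost without scramble library 3 (adjusted p = 0.0654). The neighbouring copy Ly6c1, which blood vessels also express, had 8.14 ± 5.08 CPM in PERK KO and 1.97 ± 1.29 CPM in scramble libraries (SD, n = 4 each), and did not pass (edgeR adjusted p = 0.0902). Of all stretches of 105 bases in Ly6c2 transcripts, 5.08% also occurred in Ly6c1 transcripts. That is a share of stretches, not of counts, and how reads in them were counted was not given. The log2 ratio of Ly6c2 to Ly6c1 was 1.81, -0.17, -1.71 and 1.29 in PERK KO and -1.08, -1.33, 1.11 and -1.09 in scramble libraries. These ratios overlapped, with a difference of 0.90 (exact two-sided permutation p = 0.343, adjusted p = 0.343 over 3 ratios).

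Ms4a6c encodes a membrane-spanning protein of the MS4A family that is found on monocytes and macrophages. It had 6.33, 25.1, 8.31 and 32.8 CPM in PERK KO libraries 1 to 4, against 2.70, 1.96, 1.13 and 3.87 CPM in scramble libraries 2 to 5. PERK KO libraries 2 and 4 were high and libraries 1 and 3 low, with no overlap with scramble. The log2 change was 2.91 (SE 0.58, n = 4 and 4, edgeR adjusted p = 0.0110), and the adjusted p was 0.0525 without scramble library 3. An annotated gene on the opposite strand, BE692007, covers 1088 of the 2050 exonic bases of Ms4a6c but had at most 8 counts in any library. Its family members Ms4a6b and Ms4a6d rose as well, by 2.74 (SE 0.56) and 2.53 (SE 0.64) in log2 units (edgeR adjusted p = 0.00886 and 0.0380).

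Cd14 encodes the co-receptor that hands bacterial lipopolysaccharide to the receptor TLR4. It had 9.68, 18.9, 8.45 and 18.8 CPM in PERK KO libraries 1 to 4, against 3.35, 2.94, 1.63 and 2.61 CPM in scramble libraries 2 to 5. Libraries 2 and 4 of the PERK KO group lay close together, and Cd14 was the one member whose highest value was not in PERK KO library 4. Its log2 change was 2.41 (SE 0.34, n = 4 and 4, edgeR adjusted p = 0.00167). Leaving out any 1 of the 8 libraries kept the call (adjusted p from 0.00206 to 0.00887).

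Of 10 genes of lipopolysaccharide sensing and its adaptors, 3 rose and none fell, with a median log2 change of 0.75. Cd180, a relative of TLR4 on B cells and myeloid cells, had 24.7 ± 18.4 CPM in PERK KO and 3.37 ± 1.32 CPM in scramble libraries (SD, n = 4 each, edgeR adjusted p = 0.0116). Tlr2, the receptor for bacterial lipoproteins, rose by 2.05 in log2 units (SE 0.43, edgeR adjusted p = 0.0102), and the adaptor Myd88 by 1.03 (SE 0.28, edgeR adjusted p = 0.0308). Tlr4 itself had 29.1 ± 5.06 CPM in PERK KO and 34.6 ± 1.93 CPM in scramble libraries (SD, n = 4 each) and did not pass (edgeR adjusted p = 0.263). Its partner Ly96, which encodes MD-2, had 51.1 ± 20.1 and 33.7 ± 4.42 CPM in the same order of groups (edgeR adjusted p = 0.0937).

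All 3 integrin chains rose. Itgb2, the shared beta chain, had 16.45, 22.7, 16.8 and 52.6 CPM in PERK KO libraries 1 to 4, against 8.51, 7.66, 5.18 and 6.97 CPM in scramble libraries 2 to 5. The groups did not overlap, and PERK KO library 4 was the highest of the 8. Itgb2 rose by 1.94 in log2 units (SE 0.36, n = 4 and 4, edgeR adjusted p = 0.00709) and stayed called without any 1 library (adjusted p from 0.00272 to 0.0312).

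Itgal, the alpha chain of LFA-1, had 5.06, 4.20, 6.99 and 27.6 CPM in PERK KO libraries 1 to 4, against 1.21, 2.70, 0.975 and 1.01 CPM in scramble libraries 2 to 5. The high values lay in PERK KO library 4 and, within scramble, in library 3. Itgal rose by 2.89 in log2 units (SE 0.64, n = 4 and 4, edgeR adjusted p = 0.0143), and by 1.87 without PERK KO library 4 (adjusted p = 0.0220). The call was lost without scramble library 2 or 5 (adjusted p = 0.0565 and 0.0555). The sum of 14 lymphocyte markers was 45.3 CPM in PERK KO library 4 and 2.91 to 9.15 CPM in the other PERK KO libraries, against 0.693 to 3.76 CPM in scramble libraries, and none of the 6 that were tested passed. The part of lymphocytes in the Itgal values was not tested.

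Itgam, the alpha chain of Mac-1, had 5.86, 8.08, 7.08 and 16.1 CPM in PERK KO libraries 1 to 4, against 4.09, 3.18, 0.736 and 2.42 CPM in scramble libraries 2 to 5. The groups did not overlap, and scramble library 4 was the low point. Its log2 change was 1.83 (SE 0.49, n = 4 and 4, edgeR adjusted p = 0.0276). The call was lost without PERK KO library 4, scramble library 3 or scramble library 5 (adjusted p = 0.0772, 0.0662 and 0.0796).

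The level of Itgam depends on how shared exons were counted. Itgam lies on chromosome 7 of mm10 from 128062640 to 128118491, and GENCODE M21 places the gene model Gm49368 on the same strand over 3450 of its 5024 exonic bases (68.7%). Gm49368 had no count in any of the 8 libraries. How reads in the shared exons were counted is not given in the sources used here, and 1574 bases of Itgam lie outside them. Per kb of exon Itgam had 1.85 CPM in PERK KO and 0.519 CPM in scramble libraries. Reads of the unshared bases were not counted apart. If no read in the shared exons was counted, all Itgam counts belong to the 1574 unshared bases. The level is then 5.90 and 1.66 CPM per kb in the same order, an upper limit. The change between groups uses the same bases in all libraries.

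**Figure D2:**
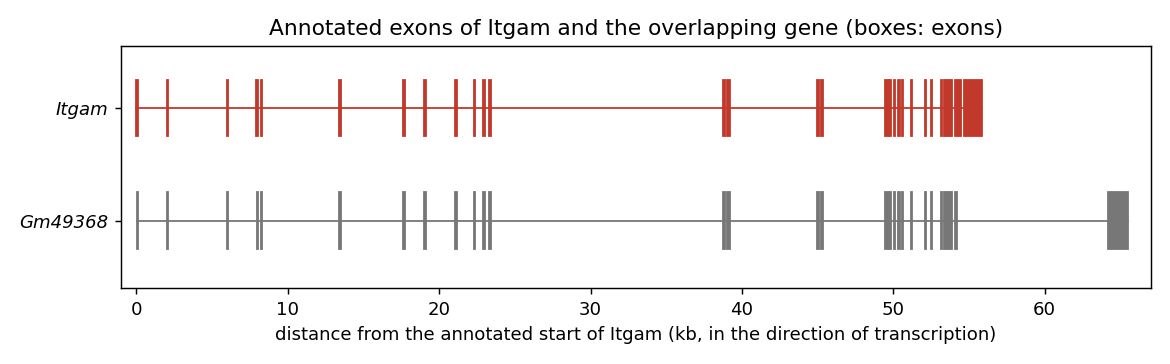
Annotated exons (boxes) of Itgam (top) and the overlapping gene model Gm49368 (bottom), along the distance in kb from the annotated start of Itgam in the direction of transcription. The exons coincide over most of the gene, except at the 3′ end of Itgam and in the last exon of Gm49368; 3450 of 5024 exonic bases of Itgam are shared.

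Among the integrin alpha chains that pair with Itgb2, Itgax, which encodes CD11c of dendritic cells and macrophages, had 12.3 ± 5.60 CPM in PERK KO and 1.12 ± 0.391 CPM in scramble libraries (SD, n = 4 each; log2 change 3.44, edgeR adjusted p = 0.000764). The log2 ratio of Itgam to Itgax was -0.04, -0.58, -0.67 and -0.28 in PERK KO libraries, against 1.60, 1.31, 0.42 and 0.80 in scramble libraries. The ratios did not overlap, with a difference of -1.42 (exact two-sided permutation p = 0.0286, the smallest that 70 assignments give), but the adjusted p over 3 ratios was 0.0857. The log2 ratio of Itgam to Itgal was 0.10 ± 0.70 in PERK KO and 0.70 ± 0.95 in scramble libraries (SD, n = 4 each) and overlapped (difference -0.60, exact two-sided permutation p = 0.343).

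Of 16 genes listed for integrin partners, activators and ligands, 14 were tested, 8 rose and none fell, with a median log2 change of 1.42. Apbb1ip, the adaptor RIAM of integrin activation, rose by 1.71 (SE 0.19, edgeR adjusted p = 0.000444) and Fyb, the adaptor ADAP, by 2.02 (SE 0.30, edgeR adjusted p = 0.00261). Itgb7, the beta chain of gut-homing integrins that mast cell precursors also carry, rose by 3.79 (SE 0.72, edgeR adjusted p = 0.00868). Itgb1, the beta chain that most cell types express, had 617 ± 30.5 CPM in PERK KO and 635 ± 12.6 CPM in scramble libraries (SD, n = 4 each, edgeR adjusted p = 0.807). Tln1, the cytoskeletal linker talin, had 291 ± 49.0 and 362 ± 40.1 CPM in the same order (edgeR adjusted p = 0.121).

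Plac8 encodes a small cysteine-rich protein found in monocytes and other blood cells and in some epithelia. It had 5.63, 1.34, 6.53 and 20.7 CPM in PERK KO libraries 1 to 4, against 0.561, 0.515, 0.0217 and 1.26 CPM in scramble libraries 2 to 5. PERK KO library 2 lay just above scramble library 5, and scramble library 4 held 1 count of Plac8, which sits below the floor. Plac8 rose by 3.85 in log2 units (SE 1.00, n = 4 and 4, edgeR adjusted p = 0.0326). The call was lost without PERK KO library 4, where the change was 2.92 (adjusted p = 0.0577), and without scramble library 2 or 3 (adjusted p = 0.104 and 0.116). Without scramble library 5 the change was 4.51 (adjusted p = 0.0470). Epithelial markers, 10 genes of which 9 rose, summed to 131, 93.0, 129 and 243 CPM in PERK KO libraries 1 to 4, lowest in library 2 and highest in library 4 as Plac8 was, against 3.31 to 5.98 CPM in scramble libraries. Whether epithelial RNA adds to the Plac8 counts was not tested.

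Lyz2 encodes lysozyme M, the enzyme that cleaves bacterial cell walls. It had 97.6, 207, 105 and 310.2 CPM in PERK KO libraries 1 to 4, against 50.7, 50.0, 18.1 and 46.3 CPM in scramble libraries 2 to 5. The scramble libraries other than library 4 lay close together, and all were below the lowest PERK KO library. The log2 change was 2.12 (SE 0.48, n = 4 and 4, edgeR adjusted p = 0.0249). The call was lost without PERK KO library 2 (adjusted p = 0.0525) and without scramble library 2, 3 or 5 (adjusted p = 0.0613, 0.0722 and 0.0652). The copy Lyz1, of which Paneth cells of the gut are a main source, had 4.41 ± 3.32 CPM in PERK KO and 0.635 ± 0.492 CPM in scramble libraries (SD, n = 4 each, edgeR adjusted p = 0.0680), and shared 1.16% of the 105-base stretches of Lyz2.

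Chil3 encodes Ym1, a secreted chitinase-like protein of monocytes, neutrophils and alternatively activated macrophages. It had 2.65, 0.878, 1.70 and 2.89 CPM in PERK KO libraries 1 to 4, against 1.41, 0.618, 0.195 and 0.755 CPM in scramble libraries 2 to 5. PERK KO library 2 lay below scramble library 2, so the groups overlapped. The difference of 1.44 in log2 units (SE 0.72, n = 4 and 4) did not pass (edgeR adjusted p = 0.231), and the median change of the 9 genes lies within 2 SE of it. Chil3 rested on 36 to 111 counts per PERK KO library and 9 to 78 counts per scramble library. Its near copy Chil4 had no count in any library.

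Levels of different genes were compared per kb of exon. Lyz2 was highest, with 137 ± 76.0 CPM per kb in PERK KO and 31.4 ± 11.8 in scramble libraries (SD, n = 4 each). In PERK KO libraries Itgb2, Ms4a6c and Cd14 followed with means of 8.90, 8.85 and 8.07 CPM per kb, which did not differ beyond their SD of 5.65, 6.30 and 3.28. Plac8 and Ly6c2 followed at 5.38 ± 5.30 and 4.66 ± 4.99, then Itgal and Chil3 at 1.67 ± 1.70 and 1.24 ± 0.565 CPM per kb (SD, n = 4 each). The SD of Plac8, Ly6c2 and Itgal were about as large as their means, so this order is one of means only. In scramble libraries Itgb2, Cd14 and Ms4a6c had 2.32, 1.52 and 1.18 CPM per kb, and Chil3, Plac8, Ly6c2 and Itgal lay between 0.456 (Chil3) and 0.224 (Itgal). Itgam has no fixed place in either order. Over its full exon length it stood below Ly6c2 in PERK KO and below Ms4a6c in scramble libraries. With all its counts set on the unshared bases, an upper limit, it would stand at 5.90 and 1.66 CPM per kb. That would be above Plac8 in PERK KO and above Cd14 in scramble libraries.

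The genes moved together across libraries in part. Scramble library 4 was the lowest scramble library for all 9 genes, and PERK KO library 4 was the highest PERK KO library for 8 of 9. The lowest PERK KO library differed between genes: it was library 1 for 4 genes, library 2 for 3 (Itgal, Plac8 and Chil3) and library 3 for 2 (Ly6c2 and Cd14). Profiles over the 8 libraries were compared by the root-mean-square difference of log2 CPM after centring each gene, where 0 means parallel. Cd14 and Lyz2 were the closest pair at 0.302, followed by Itgam and Lyz2 at 0.324 and Itgb2 and Lyz2 at 0.358. Plac8 was farthest from the rest, at 1.36 from Itgal and 1.63 from Itgb2. Against the mean of the other members, Lyz2 differed by 0.359, Ly6c2 by 0.855 and Plac8 by 1.40. With 4 libraries a group and groups that stand apart, no correlation between genes was computed.

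**Figure D3:**
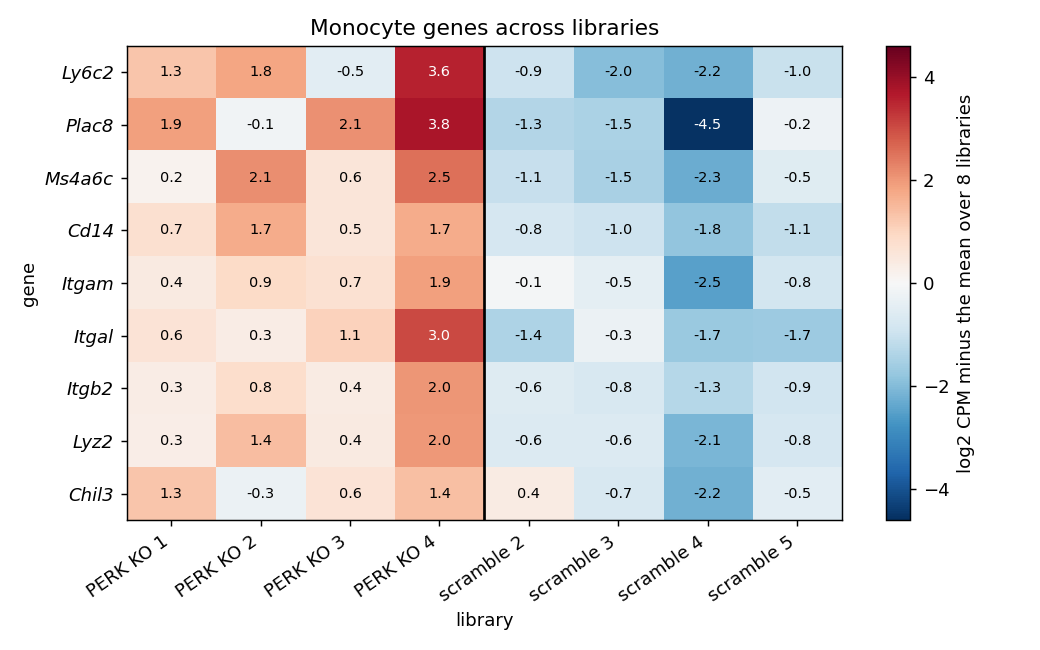
Log2 CPM of each monocyte gene (rows) minus its mean over the 8 libraries (columns, PERK KO left of the line and scramble right of it); red is above and blue below the mean. PERK KO library 4 is the reddest column for 8 of 9 genes, and Ly6c2 in PERK KO library 3 is negative (-0.50), as are Plac8 (-0.15) and Chil3 (-0.27) in PERK KO library 2.

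The 10 genes most like the mean profile of the 9, out of 13320 candidates, were Ccl2, Tbc1d9, Slfn5, Tmsb4x, Ncf1, Ston2, Ctsh, Clec2d, Selplg and Trim30d. Their root-mean-square differences ran from 0.164 for Ccl2 to 0.290 for Trim30d, beside a median of 1.45 over all candidates. Ccl2, a chemokine, had 28.7, 33.5, 22.5 and 90.1 CPM in PERK KO libraries 1 to 4, against 8.15, 6.77, 2.77 and 6.97 CPM in scramble libraries 2 to 5. Tmsb4x, which encodes the actin-binding thymosin beta 4, was the most abundant, with 469 to 1645 CPM in PERK KO and 57.5 to 166 CPM in scramble libraries. Likeness over these 8 libraries includes the group difference itself.

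Because pan-leukocyte transcripts also rose, the change of each gene was set against them. The 11 pan-leukocyte genes, among them Ptprc, which encodes CD45, summed to 204 to 885 CPM in PERK KO and 20.9 to 60.1 CPM in scramble libraries, and 10 of the 11 rose. When libraries were scaled to the mean log2 level of these 11 genes, none of the 9 monocyte genes was called in either direction by edgeR, beside 0.324% of all genes called higher and 77.4% called lower on that scale. The median log2 change on that scale was -0.35 for the 9 genes and -2.80 for all genes tested. Plac8 and Ly6c2 had the highest values, 1.03 (SE 1.07) and 0.49 (SE 0.89), with edgeR adjusted p = 0.369 and 0.614. Ms4a6c was at 0.02 (SE 0.71), Itgal at -0.32 (SE 0.84) and Cd14 at -0.35 (SE 0.71). Lyz2, Itgam, Chil3 and Itgb2 were lowest, at -0.68 (SE 0.61), -0.86 (SE 0.78), -1.04 (SE 1.28) and -1.07 (SE 0.65), with edgeR adjusted p from 0.120 to 0.447. With standard errors from 0.61 to 1.28, the test does not show that the genes kept pace with leukocyte transcripts. In the set without PERK KO library 4 and scramble library 4, Itgb2, Lyz2 and Itgam were called lower than leukocyte transcripts, with log2 changes of -0.72, -0.55 and -0.86 (edgeR adjusted p = 0.0134, 0.0364 and 0.0425). That set was chosen after the values were seen. On the same scale and set, 12063 of all 16973 genes tested were called lower, and their median log2 change was -1.99.

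**Figure D4:**
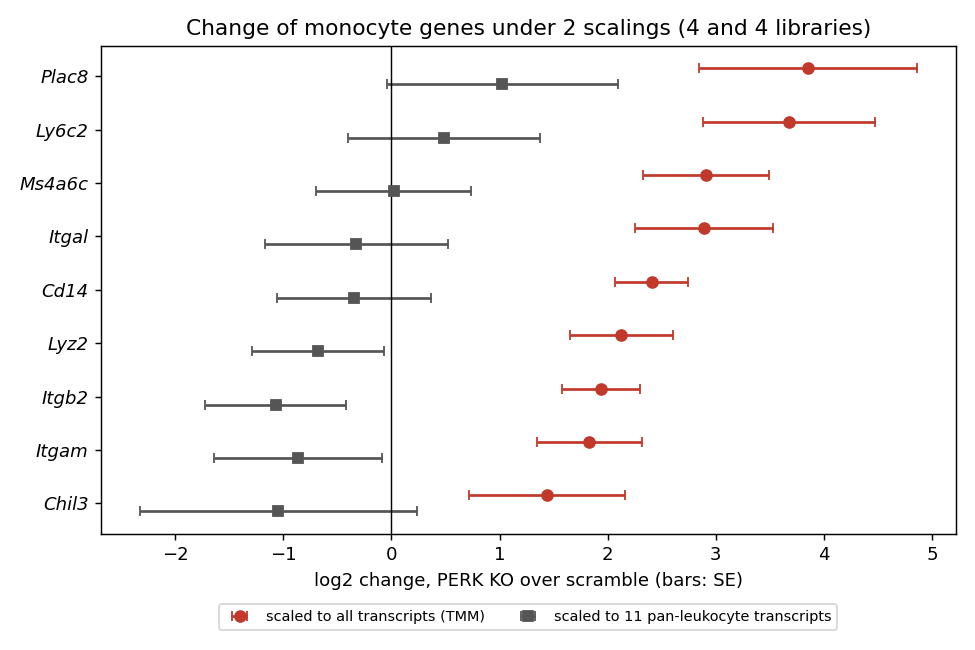
Log2 change, PERK KO over scramble, of each monocyte gene with its SE (bars), from 4 and 4 libraries, with libraries scaled to all transcripts (red circles) or to 11 pan-leukocyte transcripts (grey squares). On the first scale the genes run from 1.44 (Chil3) to 3.85 (Plac8); on the second they lie between -1.07 (Itgb2) and 1.03 (Plac8), and none was called.

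Further genes of inflammatory monocytes rose with the 9. Of 30 genes listed for them, 29 were tested, 18 rose and none fell, with a median log2 change of 2.41. F13a1, the coagulation factor XIII A chain, had 72.5 ± 22.7 CPM in PERK KO and 13.6 ± 5.19 CPM in scramble libraries (SD, n = 4 each, edgeR adjusted p = 0.00350). Spi1, which encodes PU.1, had 37.6 ± 28.9 and 4.75 ± 1.66 CPM in the same order (edgeR adjusted p = 0.00886). Cebpb, another transcription factor of myeloid cells, rose by 1.75 in log2 units (SE 0.36, edgeR adjusted p = 0.00897). The most abundant genes of the list did not pass: Fn1, which encodes fibronectin and is made by many cell types, had 380 ± 67.8 and 314 ± 52.9 CPM (edgeR adjusted p = 0.265), and the interferon-induced Ifitm3 had 389 ± 130 and 233 ± 39.0 CPM (edgeR adjusted p = 0.0509).

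Of 11 genes listed for patrolling, non-classical monocytes, 5 rose and none fell, with a median log2 change of 1.35. Cx3cr1, the fractalkine receptor, had 2.51, 6.37, 3.07 and 2.00 CPM in PERK KO libraries 1 to 4, against 0.742, 0.361, 0.303 and 0.619 CPM in scramble libraries 2 to 5 (edgeR adjusted p = 0.00990). PERK KO library 4, highest for most of the 9 genes, was lowest for Cx3cr1. Nr4a1, an immediate early nuclear receptor that these monocytes need, rose by 0.58 (SE 0.14, edgeR adjusted p = 0.0203) and was abundant in both groups, with 294 ± 61.5 and 197 ± 23.4 CPM. Spn, which encodes CD43, rose by 3.00 (SE 0.75, edgeR adjusted p = 0.0219), although its groups overlapped. Cd300e, an activating receptor of monocytes, had 14 to 104 counts in PERK KO libraries and 3 counts in scramble library 3 with 0 in the other scramble libraries; it was called higher (edgeR adjusted p = 0.0114). Itga4 and Eno3, the genes of the list that did not pass with the highest mean over all 8 libraries, had 199.9 ± 10.1 and 22.3 ± 2.38 CPM in PERK KO and 235 ± 25.9 and 21.7 ± 2.49 CPM in scramble libraries.

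Markers of some other cells, but not of all, moved with the 9 genes. Of 12 macrophage markers 11 were tested and 10 rose, and the list summed to 207 to 636 CPM in PERK KO and 56.3 to 111 CPM in scramble libraries. Of 12 dendritic cell markers 9 were tested, 6 rose and Sirpa fell, with a median log2 change of 3.60; the list summed to 291 to 536 CPM in PERK KO and 317 to 333 CPM in scramble libraries, mostly from Sirpa (252 ± 26.7 and 312 ± 7.27 CPM; SD, n = 4 each; edgeR adjusted p = 0.0365). All 10 mast cell markers rose, with a sum of 688 to 3082 CPM in PERK KO and 18.1 to 158 CPM in scramble libraries. Of 12 neutrophil markers 5 were tested and 2 rose (Padi4 and Csf3r), with a sum of 5.19 to 21.8 CPM in PERK KO and 1.24 to 3.93 CPM in scramble libraries. The defining neutrophil genes Ly6g, Camp, Ngp and Stfa2 had no count in any library. S100a8, a calcium-binding protein abundant in neutrophils and in classical monocytes, had 0 to 1.51 CPM in PERK KO and 0 to 0.390 CPM in scramble libraries (edgeR adjusted p = 0.476). Endothelial markers summed to 81.6 to 309 CPM in PERK KO and 45.1 to 224 CPM in scramble libraries, and none of the 10 passed. Of 10 melanocyte markers 5 fell and none rose. The part of macrophages, dendritic cells, mast cells and other cells in the values of the 9 genes was not tested.

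**Figure D5:**
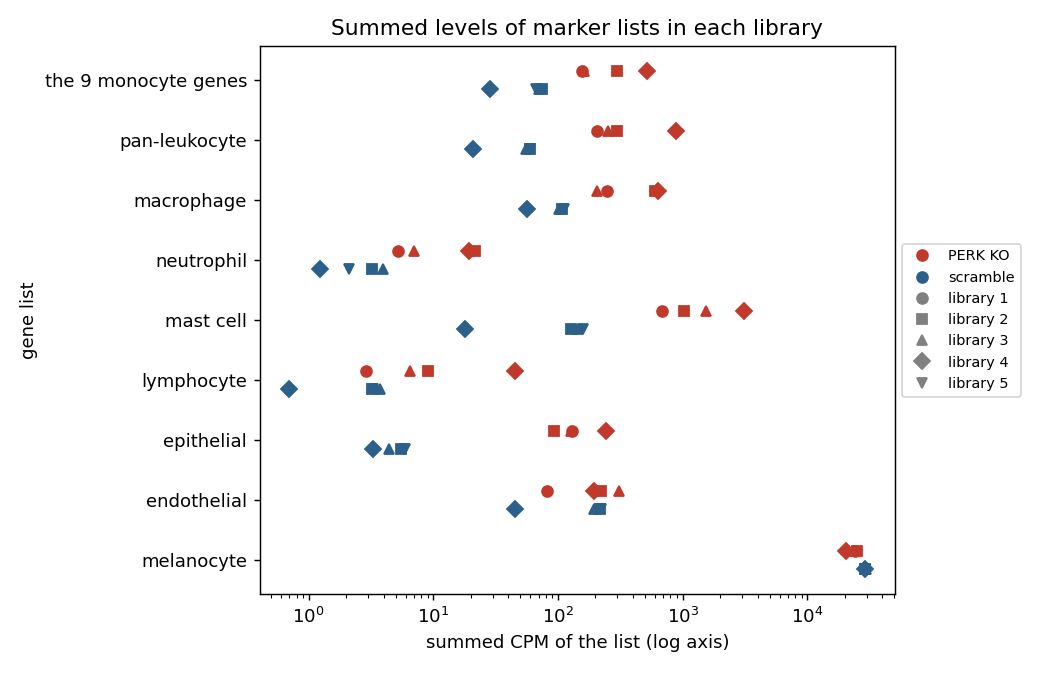
Summed CPM of each marker list (rows, log axis) in each PERK KO library (red, upper points of a row) and scramble library (blue, lower points), with marker shapes for library numbers. The 9 monocyte genes sum to 156 to 515 CPM in PERK KO and 28.5 to 73.9 CPM in scramble libraries; the neutrophil and lymphocyte lists lie below 50 CPM in all libraries, and the melanocyte list is the one that is lower in PERK KO.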

How the data were processed

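Per the labels' protocols, magnetic beads were used to enrich c-Kit-positive cells from digested tumours, and strand-specific libraries were made from 100 ng of RNA and read as pairs of 105 bases. The submitters' processing notes name mm10 and, among tools, DESeq2 1.30.1, HTSeq 0.6.1 and STAR 2.5.3a, with no settings. The deposited table holds whole-number counts per gene and library, made by the authors; the normalized table was not used.

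Genes were filtered by group with filterByExpr, scaled with TMM and fitted on group alone in edgeR 4.0.16 under R 4.3.3 (robust quasi-likelihood F test), with Benjamini-Hochberg adjustment over all 16662 genes tested. A second fit replaced the library scale by the mean log2 CPM (prior count 2) of 11 pan-leukocyte genes, taken as known, so its errors leave out that of the scale. Ratios of 2 genes were tested by exact permutation over 70 assignments. Coordinates and exon lengths came from GENCODE M21, promoters from RefSeq (GRCm38.p6).

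The 9 genes, the lists and the tests were chosen with earlier results of these data known. From the lists of inflammatory and patrolling monocytes, integrin partners and lipopolysaccharide sensing, the text names up to 4 called genes with the smallest p. It also names the 2 most abundant genes of each that were not called. A list that holds genes of another list repeats none of them. Marker lists of other cells are given mostly by counts of called genes and summed CPM, and this rule was not applied to all of them. Ly6c1, Lyz1, Chil4, S100a8, Padi4, Csf3r and Ptprc are named as copies or markers. Alternatives were DESeq2 1.42.0, limma-voom 3.58.1, other scalings and filters, a fit that is not robust, Ptprc alone as leukocyte scale, a prior count of 0.5, a replicate block, and leaving out libraries. Tables and plots used Python 3.11.15 with matplotlib 3.10.9.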

Additional observations from a re-analysis of the deposited data

Results flagged for a closer look

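In 3 of the 18 gene and group sets of 4 libraries, 1 library lay far from the others by Dixon's criterion, which chance meets in about 1 of 20 sets. Itgal was at 27.6 CPM in PERK KO library 4, far above the other 3 PERK KO libraries. Itgal was also at 2.70 CPM in scramble library 3, above the other 3 scramble libraries. Lyz2 was at 18.1 CPM in scramble library 4, below the other 3 scramble libraries.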

How the results depend on the processing

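Over all genes, 2299 were called with all libraries. Leaving out 1 library gave 1078 to 2616 calls, lowest without scramble library 3 (1078) and also low without scramble libraries 2, 4 and 5 (1283, 1428 and 1361). Leaving out PERK KO library 4 and scramble library 4 together, a setting added after the data were seen, gave 1279; the cause of these shifts was not tested. Of calls, 55.5% were higher (1277 against 1022 lower), 68.7% with upper-quartile factors (1430 against 653) and 47.7% with library totals (1065 against 1169). The 9 genes kept their direction under all 17 alternatives of the comparison with all transcripts; DESeq2, RLE, library totals, upper-quartile factors, the stricter filter and the fit that is not robust each called 8, and the fit without a filter called 5 (Ly6c2, Plac8 and Lyz2 were lost, with adjusted p = 0.0606, 0.106 and 0.0693). The number called was 3 without scramble library 3 (Cd14, Itgal and Itgb2) and 5 to 8 without any other library. Chil3 passed under none.

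On the leukocyte scale 12951 genes were called, 12105 to 13115 without 1 library. Ms4a6c, near 0 there, turned sign with limma-voom (-0.054) and ranged from -0.49 to 0.23 without 1 library, and Cd14 was at 0.044 without both libraries numbered 4. The sample titles number the libraries and do not say whether equal numbers are a pair. Correlations of same-numbered libraries' deviations were -0.01, 0.10 and -0.20 for numbers 2, 3 and 4, which are too few to settle it. A replicate block gave 208 calls, and 21 on the leukocyte scale, and of the 9 genes called Ms4a6c alone. In that fit PERK KO library 1 and scramble library 5 have no partner, so its group change rests on numbers 2, 3 and 4 only. The 3 ratios kept their direction under all alternatives run; their differences then ran from -0.96 to -0.26 (Itgam to Itgal), -1.63 to -1.23 (Itgam to Itgax) and 0.40 to 1.57 (Ly6c2 to Ly6c1). Chil3, Plac8 and Ly6c2 rest on few counts in scramble libraries (9 to 78, 1 to 65 and 26 to 78).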

Other observations

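On the leukocyte scale, lists of other myeloid cells had median log2 changes of 1.03 (10 mast cell markers), 0.58 (9 tested dendritic cell markers) and -0.41 (11 tested macrophage markers), beside -0.35 for the 9 monocyte genes. Of all genes in these 3 lists Hdc, the histamine-forming enzyme of mast cells, was the one called higher than leukocyte transcripts, and was named after its values were seen (1.66, SE 0.69, edgeR adjusted p = 0.0223). Called lower on that scale were Sirpa (-3.10), Zbtb46 (-1.87) and Mertk (-2.67), with edgeR adjusted p = 2.4e-05, 0.0116 and 0.000123. Of all genes tested 77.4% were called lower on that scale, and the median log2 change was -2.80. Whether these lists differ from the monocyte genes was not tested.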
